A study of Mus musculus with 2 samples.

Results

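The genes described are 50 regulators of the cell division cycle, comprising cyclins, cyclin-dependent kinases (CDKs), CDK inhibitors, the phosphatases and kinases that act on CDKs, E2F transcription factors and their pocket protein partners, and a few factors that work with them. They were taken by name from the arrays, on which 72 of the 55681 probes carried the name of a member. Their mRNA was measured in ALDH-negative and ALDH-positive 4T1 cells, a mouse mammary carcinoma line of BALB/c origin, sorted from untreated culture with ALDEFLUOR, a fluorescent substrate of aldehyde dehydrogenase (ALDH) that marks cells in which the enzyme is active. Each population was hybridised to 1 one-colour Agilent array with probes of 60 bases. The sample labels name the populations anti cancer stem cell and cancer stem cell, and these were read as ALDH-negative and ALDH-positive because the study takes high ALDH activity as the mark of stem-like cells. Each population was a pool of sorted cells with no treatment, transgene or other agent, and the labels name no second culture.

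Cyclins are the regulatory subunits that switch on CDKs, and inhibitors, phosphatases and kinases set how active the resulting complexes are. In G1 phase, complexes with D-type and E-type cyclins phosphorylate the pocket proteins RB1, p107 and p130, which releases E2F factors to transcribe genes of the G1/S transition and of DNA replication. Later, B-MYB and FOXM1 act with the MuvB complex on genes of G2 phase and mitosis, many of which carry a CCAAT box and a cell cycle genes homology region (CHR) in their promoters.

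Signals are quantile-normalized intensities, in intensity units, and every ratio sets ALDH-positive over ALDH-negative. A gene was measured if a probe was well above background on at least 1 array, which held for 45 of the 50 members and for 20384 of the 34797 gene names on the array. All 62 measured probes of the members were well above background on both arrays. The brightest measured probe of a gene stands for it. The error given for each log2 ratio was built from the signal errors that the scanner software reports. It lay between 0.20 and 0.23 for the 45 members and is technical. With a single array for each population, no difference could be tested or checked in a replicate. A gene is called higher if its ratio was at least 1.5 and its Z-score at least 2.0, and lower if the ratio was at most 0.75 and the Z-score -2.0 or below. The Z-score is the distance of the log2 ratio from the mean of probes of similar brightness, in units of their SD.

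Of the 45 measured members, only *Ccnf*, the gene of cyclin F, was higher in ALDH-positive cells (2.22%), against 1.58% of all measured genes. No member was lower, against 3.25% of all measured genes. With only probes well above background on both arrays, as all measured member probes were, 193 of 18745 genes were higher and 526 lower. *Ccnf* was again the only member higher. The count of higher members depended on the processing: it was 3 (6.67%) with each array scaled to its 75th percentile, against 1.75% of all measured genes, and 0 with the Z-score taken over all probes, against 1.91%. *Cdk1*, *Cdc25b* and *Cks2* also had a Z-score of at least 2.0 but a ratio under 1.5. Thus 4 members (8.89%) reached that Z-score, against 2.42% of all measured genes, and none had a Z-score at or below -2.0, against 3.53%. These 4 genes are described first, with the probes and promoters from which their values and sequence features were read.

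The first 30 bases of the probes are shown because each value below is the signal of 1 such oligonucleotide and because *Cdk1* had 3 that differed. Positions on assembly NCBI37 were taken from the array files, and capitals mark bases of the second *Cdk1* probe that also lie in the first. All lie in transcripts of the named genes according to those files. Whether a probe falls in coding sequence or in an untranslated part was not determined here.

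*Ccnf* probe (chr17:24360204-24360263, minus strand): ctgtctttatttctacatttcttctaatgg

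*Cdc25b* probe (chr2:131023911-131023970, plus strand): cctcttgtatgtgtggtttttctgtgttgt

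*Cks2* probe (chr13:51745799-51745858, plus strand): atatgtgtatataaggtagtattcagtgaa

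*Cdk1* first probe (chr10:68801072-68801131, minus strand): ttcttaatttcctacgtataacttaattaa

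*Cdk1* second probe (chr10:68801053-68801112, minus strand): AACTTAATTAACATGTAAATATTATTCCAT

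*Cdk1* downstream probe (chr10:68799513-68799572, minus strand): atacactaaaaatttgggtagccaggaggt

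Cyclin F is the substrate-recognition subunit of an SCF ubiquitin ligase and, unlike most cyclins, does not activate a CDK. The signal of *Ccnf* was 2927 intensity units in the ALDH-negative and 4753 in the ALDH-positive population. Its ratio was 1.62, a log2 ratio of 0.70 (error 0.20) with a Z-score of 3.78. The ALDH-positive array was brighter before normalization, with a median log2 ratio of 0.49 over the measured probes, and the log2 ratio of *Ccnf* on that scale was 1.25. *Ccnf* was no longer past the limits when its Z-score was taken over all probes, and its log2 ratio was between 0.64 and 0.79 over the ways of processing compared. In RNA from sorted pools, more cells of a phase and more RNA per cell cannot be told apart.

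CDK1 is the kinase that drives entry into mitosis. The brightest *Cdk1* probe had signals of 4472 and 6675, in the same order, and a log2 ratio of 0.58 (error 0.20, Z-score 2.90), so that its ratio of 1.49 was just under the limit of 1.5. The second probe, whose 30 bases above lie inside the first, had signals of 319.8 and 378, for a log2 ratio of 0.24. The downstream probe begins at base 2670 of the transcript in the array files, against base 1111 for the first, and was dim, with signals of 50.9 and 47.6, giving a log2 ratio of -0.095 (error 0.24). The 3 probes therefore gave values on both sides of 0, and none of them passed both limits.

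CDC25B is a phosphatase that removes inhibitory phosphate from CDK1 at the start of mitosis, and CKS2 is a small subunit that binds CDKs and helps them to their substrates. *Cdc25b* had signals of 2999 (ALDH-negative) and 4345 (ALDH-positive), a ratio of 1.45 and a log2 ratio of 0.53 (error 0.20, Z-score 2.85). For *Cks2* the signals were 1523 and 2029.9, a ratio of 1.33 and a log2 ratio of 0.41 (error 0.20, Z-score 2.06). Both genes were measured by 1 probe, and each log2 ratio was more than 2.0 times its error, like those of *Ccnf*, *Cdk1* and *Ccng2* and of no other member.

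**Figure D1:**
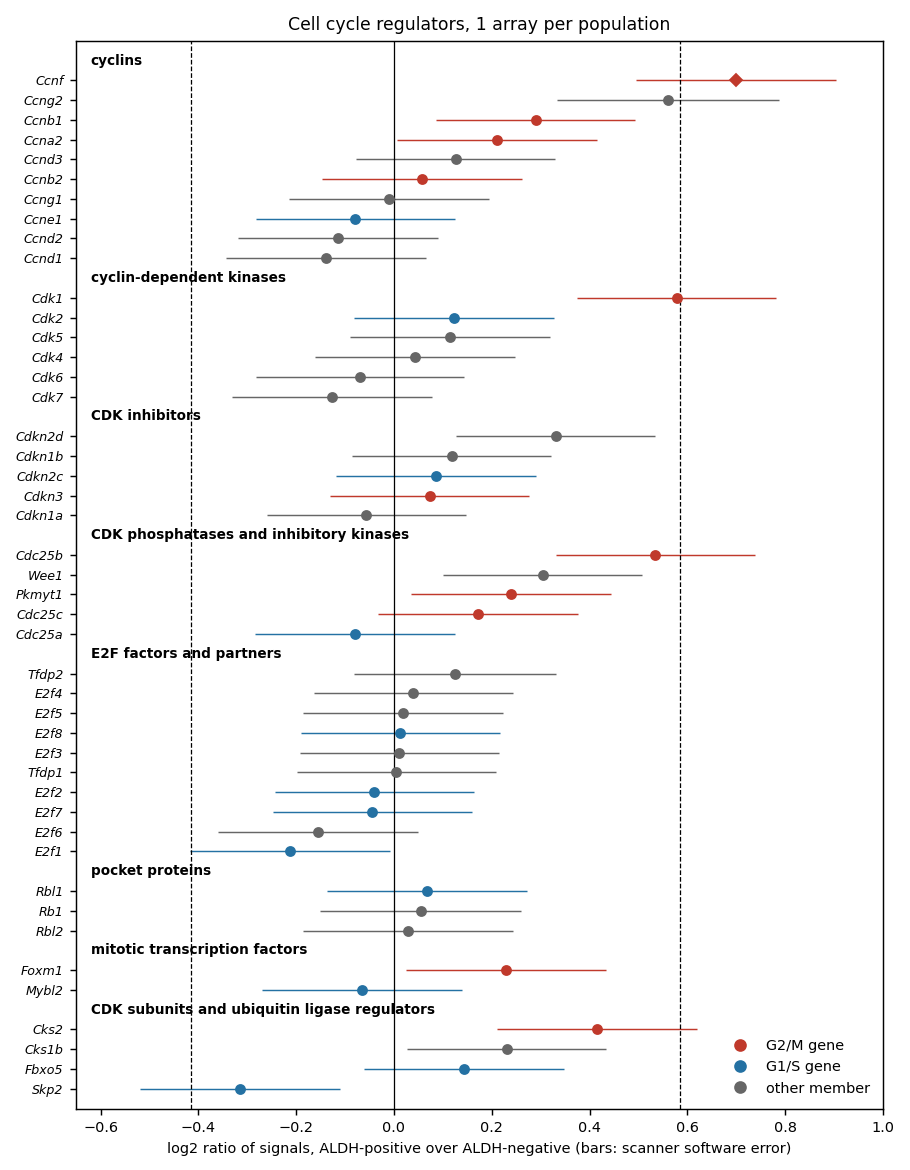
Log2 ratio of ALDH-positive over ALDH-negative signal (x axis) for the 45 measured members by role, 1 array per population, with the scanner's error as bars, red for G2/M genes, blue for G1/S genes and grey for other members; dashed lines mark ratios of 0.75 and 1.5. *Ccnf* (diamond, 0.70) lies beyond the upper line with a Z-score past its limit, and all 11 red points lie above 0.

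Among the cyclins, 10 of 12 were measured, 6 had a log2 ratio above 0 and the median was 0.092, beside 0.020 over all measured genes. The cyclins of S phase and mitosis all had values above 0 by their brightest probe. *Ccna2*, whose product binds CDK2 and later CDK1, had signals of 9891 (ALDH-negative) and 11447 (ALDH-positive), with a log2 ratio of 0.21. *Ccnb2*, a mitotic cyclin gene, had signals of 19091 and 19868, for a log2 ratio of 0.058. For *Ccnb1*, the main partner of CDK1 in mitosis, the brightest of 3 probes gave 8619 and 10536, for a log2 ratio of 0.29, and the others gave 0.094 (891 and 952) and -0.29 (904 and 739.8). The probes of *Ccnb1* thus differed by more than the error of any of them.

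D-type cyclins couple growth factor signals to CDK4 and CDK6. *Ccnd1* had signals of 21017 (ALDH-negative) and 19091 (ALDH-positive), and *Ccnd2* had 3175 and 2933, log2 ratios of -0.14 and -0.11. The 2 probes of *Ccnd3* gave 6499 and 7093 (log2 ratio 0.13) and 2747 and 3062 (0.16). All 3 genes lay within their error of 0. *Ccne1*, a partner of CDK2 at the G1/S transition, had signals of 1653 and 1565, for a log2 ratio of -0.079, and its dim probe, at 74.1 and 71.8, gave -0.047. Cyclins G1 and G2 are linked to stress responses more than to the progress of the cycle. *Ccng1*, a p53 target, had signals of 498 and 495, for a log2 ratio of -0.010. *Ccng2*, whose product is linked to cell cycle arrest, had signals of 51.0 and 75.3, for a log2 ratio of 0.56 (error 0.23), but its Z-score among equally dim probes was 1.27. The log2 ratio of *Ccng2* was between 0.27 and 0.56 over the ways of processing compared, and it passed no limit. *Ccna1* and *Ccne2* were not well above background on either array, so no ratio is given for them.

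Of the 6 CDK genes, all were measured, and none but *Cdk1* lay outside its error of 0. *Cdk4*, the D-cyclin kinase of G1 phase, was read by 3 probes that gave nearly the same value. They had signals of 44479 and 45826, of 21564 and 21399.6, and of 13948 and 13649, with log2 ratios of 0.043, -0.011 and -0.031. *Cdk6*, which acts beside CDK4, had signals of 124 and 118, for a log2 ratio of -0.069. *Cdk2*, the kinase of cyclins E and A, had 351 and 382, for a log2 ratio of 0.12. *Cdk5*, best known for its role in neurons, gave 612 and 663, for a log2 ratio of 0.11. *Cdk7*, the kinase that activates other CDKs, gave 709 and 649.6, for a log2 ratio of -0.13, and its other probe was below background.

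The CDK inhibitors are proteins that bind CDKs or their cyclin complexes and block them. Of 8 genes, 5 were measured, of which none passed the limits. *Cdkn1a*, which encodes p21, was read by a probe printed 10 times on each array, with signals of 668 and 642, giving a log2 ratio of -0.056, and the other 2 probes of the gene were below background. *Cdkn1b*, which encodes p27, had signals of 3649 and 3959.8 for its bright probe, a log2 ratio of 0.12. A dim second probe of *Cdkn1b* had 37.2 and 20.6, for a log2 ratio of -0.85 (error 0.30) with a Z-score of -1.14, and it was the probe farthest below 0 among the measured probes of all members. *Cdkn2d*, which encodes p19INK4d, an inhibitor of CDK4 and CDK6, had signals of 3289.9 and 4137, for a log2 ratio of 0.33 (Z-score 1.77), and was the inhibitor gene with the largest value. *Cdkn2c*, its close relative, had 1592 and 1689.8, for a log2 ratio of 0.086. *Cdkn3*, whose product is a phosphatase that acts on CDK2, had 1402 and 1475, for a log2 ratio of 0.073. *Cdkn1c*, *Cdkn2a* and *Cdkn2b* were not well above background in either population on any of their 5 probes. The 2 probes of *Cdkn2b* moved in opposite directions at that level, with signals of 9.80 and 2.96 for the first and of 3.34 and 9.71 for the second.

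**Figure D2:**
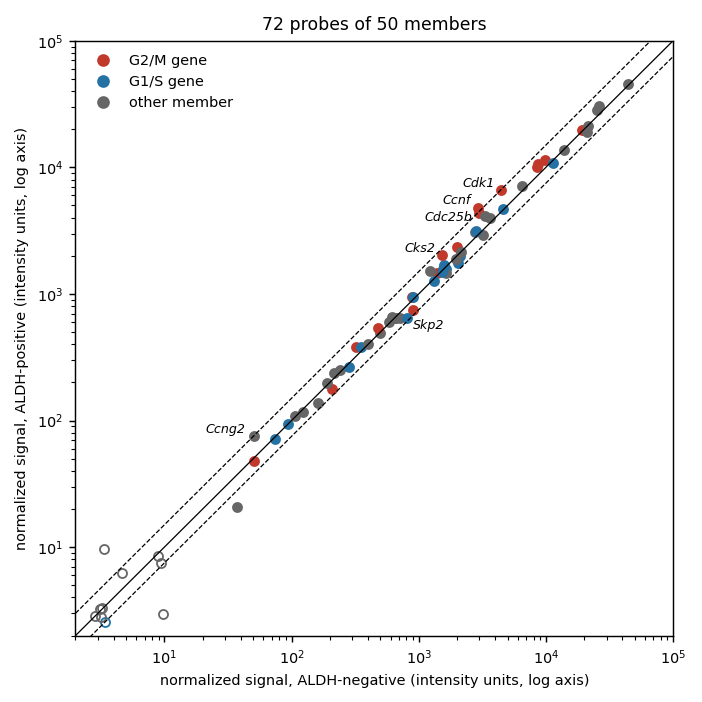
Normalized signal of the 72 probes of the 50 members in ALDH-negative (x axis) and ALDH-positive cells (y axis), in intensity units on log axes, with open circles for the 10 probes below background on both arrays, a solid line at equal signal and dashed lines at ratios of 0.75 and 1.5. The measured probes span from 20.6 to 45826 intensity units in ALDH-positive cells and most lie close to the solid line, with *Ccnf* above the upper dashed line.

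The phosphatases and kinases that set the inhibitory phosphate on CDKs had a median log2 ratio of 0.24 over 5 genes, 4 of them above 0. *Cdc25b*, given above, had the largest value. *Cdc25a*, the member of that family that acts at the G1/S transition, had signals of 2098 (ALDH-negative) and 1985 (ALDH-positive), with a log2 ratio of -0.080. *Cdc25c*, which acts on CDK1 at mitosis, had 477 and 537, for a log2 ratio of 0.17. The kinases that oppose them stood on the same side of 0. *Wee1* had signals of 1232 and 1521, for a log2 ratio of 0.30 with a Z-score of 1.62, and *Pkmyt1*, which encodes the membrane-bound kinase MYT1, had 8465 and 9996, for a log2 ratio of 0.24 with a Z-score of 1.33. Neither passed the limits.

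The E2F genes and their dimerization partners had values close to 0, with a median log2 ratio of 0.0080 over 10 genes and with 9 of them inside their error. The exception was *E2f1*, an activator of replication genes, with signals of 2023 and 1745, for a log2 ratio of -0.21 (error 0.20, Z-score -0.98). The other activators, *E2f2* and *E2f3*, had signals of 1309 and 1273 and of 645 and 650.4, log2 ratios of -0.040 and 0.011. A dimmer *E2f3* probe gave 162 and 138, for a log2 ratio of -0.23. The repressors *E2f4* and *E2f5*, partners of the pocket proteins, had 580.2 and 596 and 397 and 402, log2 ratios of 0.040 and 0.019. *E2f6*, a repressor that does not bind pocket proteins, had 1637 and 1469.9, for a log2 ratio of -0.16. *E2f7* and *E2f8* encode late-acting repressors that are themselves E2F targets, and they had signals of 1535 and 1488 and of 4626 and 4668, log2 ratios of -0.044 and 0.013. The dimerization partner genes were as close to equal. *Tfdp1* had 2146 and 2153, for a log2 ratio of 0.0049, and *Tfdp2* had 217 and 237, for a log2 ratio of 0.13.

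The pocket protein genes also had values close to 0. *Rb1*, the retinoblastoma gene, was read by a probe printed 10 times and had signals of 242 (ALDH-negative) and 252 (ALDH-positive), with a log2 ratio of 0.055. *Rbl1*, which encodes p107, had 896 and 939, and a dimmer probe 283 and 264, log2 ratios of 0.067 and -0.10. *Rbl2*, which encodes p130, had 106 and 108, for a log2 ratio of 0.029. All 3 genes lay within their error of 0.

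Of the transcription factors that act after the E2F wave, *Mybl2*, which encodes B-MYB, had signals of 11269 and 10770.3, for a log2 ratio of -0.065, and its second probe gave 0.025. *Foxm1*, an activator of mitotic genes, had 2015 and 2362 on its bright probe, a log2 ratio of 0.23 (Z-score 1.21), while a dimmer probe had 208 and 178, for a log2 ratio of -0.22. The *Foxm1* probes were therefore of opposite sign, and their median was 0.0048. *Cks1b*, the gene of the relative of CKS2 that also serves the SKP2 ubiquitin ligase, had signals of 26128 and 30658, for a log2 ratio of 0.23, and its second probe gave 0.16. *Skp2*, whose product directs the destruction of p27, had 806 and 648, for a log2 ratio of -0.31 (error 0.20) with a Z-score of -1.40, the lowest of the measured members but not past the limits. *Fbxo5*, which encodes the inhibitor EMI1 of the anaphase-promoting complex, had 2829 and 3125, for a log2 ratio of 0.14.

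**Figure D3:**
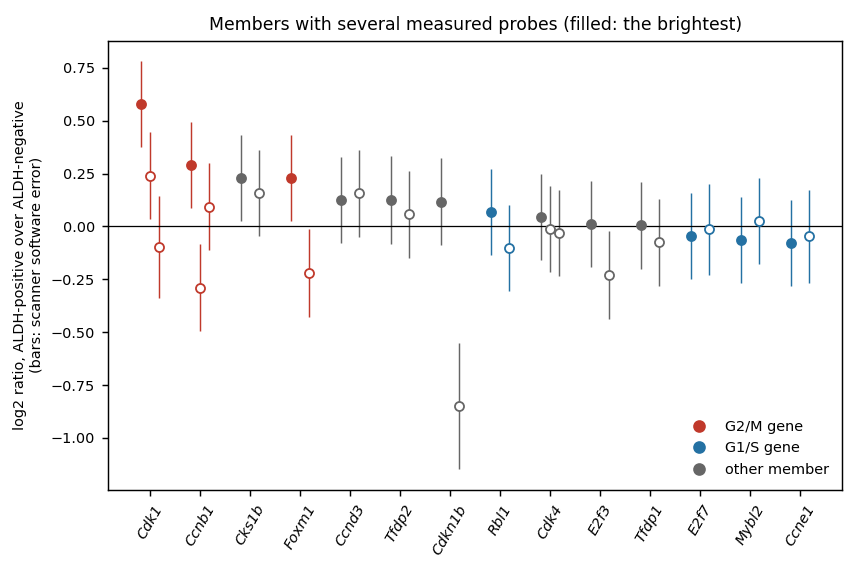
Log2 ratio of ALDH-positive over ALDH-negative signal (y axis) for each measured probe of the 14 members with several, with the scanner's error as bars, the brightest probe filled, red for G2/M genes, blue for G1/S genes and grey for other members. The probes of *Cdk1*, *Ccnb1* and *Foxm1* lie on both sides of 0, the *Cdk4* probes lie between -0.031 and 0.043, and the dim *Cdkn1b* probe lies at -0.85.

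Agreement between probes of a gene bears on how far these values can be read. In 14 members with several measured probes, the log2 ratios of a gene ranged over a median of 0.086, beside 0.25 over the 5672 genes of the array with several, and 9 of the 14 had values on both sides of 0, beside 2663 of the 5672. Of the G2/M genes listed below, only *Cdk1*, *Ccnb1* and *Foxm1* had several measured probes. Their log2 ratios ranged over 0.67, 0.58 and 0.45, all wider than the array median, and each had a dimmer probe below 0. The other G2/M genes, *Ccnf*, *Cdc25b* and *Cks2* among them, had 1 probe each, so no second reading exists for them on these arrays.

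Some members were also listed as genes of G2/M or of G1/S. The lists are a choice: *Mybl2*, itself an E2F target, was placed with the G1/S genes although B-MYB acts later, and *Wee1* was placed in neither. The 11 G2/M genes were *Ccna2*, *Ccnb1*, *Ccnb2*, *Ccnf*, *Cdk1*, *Cdkn3*, *Cdc25b*, *Cdc25c*, *Pkmyt1*, *Foxm1* and *Cks2*. All 11 were measured and had a log2 ratio above 0 by their brightest probe, from 0.058 (*Ccnb2*) to 0.70 (*Ccnf*) with a median of 0.24, and 3 of them lay within their error. Dimmer probes of *Ccnb1*, *Cdk1* and *Foxm1* gave values below 0, as described. With *Mybl2* and *Wee1* counted as G2/M genes, a grouping added after the values were seen, 12 of 13 were above 0 and the median was again 0.24. The 12 measured G1/S genes were *Ccne1*, *Cdk2*, *Cdkn2c*, *Cdc25a*, *E2f1*, *E2f2*, *E2f7*, *E2f8*, *Rbl1*, *Mybl2*, *Fbxo5* and *Skp2*. They ranged from -0.31 (*Skp2*) to 0.14 (*Fbxo5*) with a median of -0.042, 5 were above 0, and 10 lay within their error. Of all measured genes, 53.9% had a log2 ratio above 0, beside 31 of the 45 members (68.9%). This member count moved with the processing, from 26 of 45 when the middle value of its probes stood for a gene to 35 of 45 with the 75th percentile scaling. Without the last eighth of rows and of columns, which held 24.3% of measured probes, it was 23 of 37. The G2/M group was written with earlier results for *Cdk1* and other mitotic genes of these arrays known, so its direction is a description and not independent evidence. The median of the G2/M genes was between 0.20 and 0.32 over the ways of processing compared, with every measured gene of the list above 0 in each. The median of the G1/S genes was between -0.065 and 0.033 and turned above 0 when each array was scaled to its 75th percentile, with 9 of the 12 genes above 0.

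**Figure D4:**
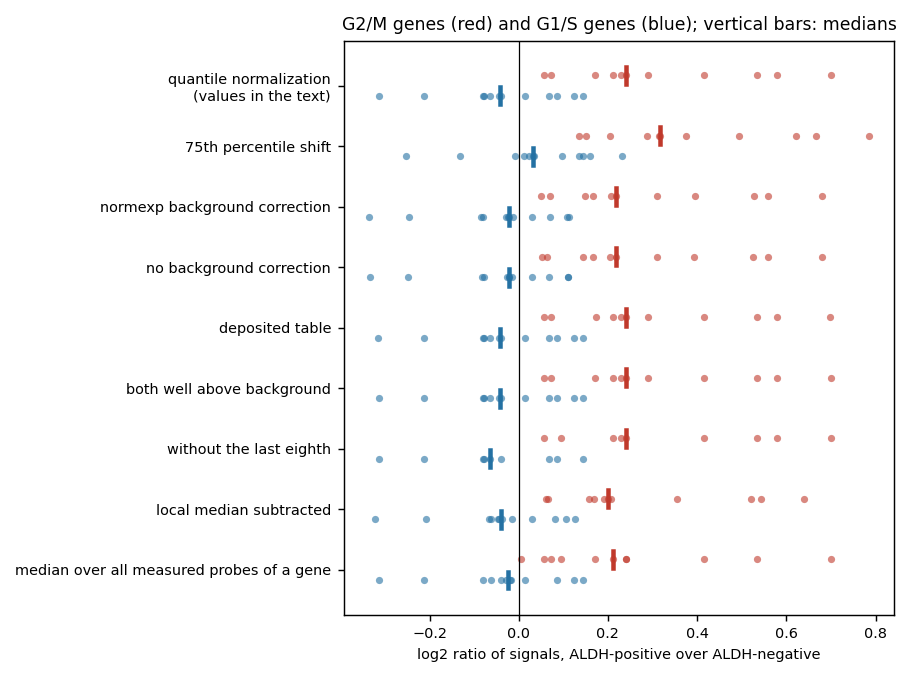
Log2 ratio of ALDH-positive over ALDH-negative signal (x axis) of the G2/M genes (red points) and the G1/S genes (blue points) under 9 ways of processing the same 2 arrays (rows), with vertical bars for the medians. The red median stays between 0.20 and 0.32 in every row, and the blue median stays between -0.065 and 0.033.

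The promoters of the members were searched for the elements named above, to show what the genes share in sequence. A RefSeq promoter on GRCm38.p6 was at hand for 37 of the 50 members, and the 250 bases before the start of the gene were read on both strands for CCAAT, for the CHR letters TTTGAA and for the E2F letters TTTCGCGC, TTTGGCGC, TTTCCCGC and TTTGGCGG. None of these runs of letters contains another. A match is a run of letters and not evidence of binding. CCAAT was present in 7 of the 7 G2/M genes with a promoter and in 7 of 12 G1/S genes (58.3%), beside 37.5% of 27025 genes. TTTGAA was present in 4 of the 7 (57.1%), namely *Ccnb2*, *Ccnf*, *Cdk1* and *Cdkn3*, and in 3 of the 12 (25.0%), beside 18.3% of all genes. An E2F run was present in 1 of the 7 (14.3%), *Cdk1*, and in 4 of the 12 (33.3%), *Cdc25a*, *Cdk2*, *E2f7* and *Rbl1*, beside 2.26% of all genes. For the genes with a Z-score of at least 2.0, and for *Cdc25a* and *Rbl1* as G1/S genes close to 0, the 30 bases with the most motif letters are shown, written along the gene's strand with the matched letters in capitals (ATTGG is CCAAT read on the other strand).

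*Ccnf* (chr17:24251510-24251539, minus strand): TTTGAAttcgcgtcctggtgtagCCAATca

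*Cdk1* (chr10:69352954-69352983, minus strand): TTTGAAcgtctacgtgcaatcggATTGGcg

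*Cdc25b* (chr2:131186918-131186947, plus strand): ccATTGGtggcgtctggcggcgctgccgct

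*Cks2* (chr13:51645202-51645231, plus strand): ggcttctgATTGGttacctgtcctcgaggt

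*Cdc25a* (chr9:109875498-109875527, plus strand): ATTGGtgaattccgTTTGGCGCcaactagg

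*Rbl1* (chr2:157204535-157204564, minus strand): caagaaggcgatTTTCGCGCgctttgtcgc

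In these windows, *Ccnf* and *Cdk1* each held TTTGAA and a CCAAT box, *Cdc25b* and *Cks2* held a CCAAT box alone, *Cdc25a* held a CCAAT box and an E2F run, and *Rbl1* held an E2F run alone. A second TTTGAA began 14 bases before the start of *Ccnf* and 15 before that of *Cdk1*. *Cdk1* also held an E2F run 131 bases before its start.

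Other genes of the pathway were read for comparison. Of 40 further cell cycle regulators, 38 were measured, 24 had a log2 ratio above 0 and the median was 0.039. Among them *Fzr1* alone was higher, and none was lower. As with some members, *Aurka* (0.49, Z-score 2.49) and *Plk1* (0.45, Z-score 2.46) also had a Z-score of at least 2.0 but a ratio under 1.5. The lowest Z-score of these regulators was -1.79, for *Cdc6*. *Fzr1* encodes CDH1, which targets mitotic cyclins for destruction with the anaphase-promoting complex, and had signals of 5336 (ALDH-negative) and 8346 (ALDH-positive), with a log2 ratio of 0.65 (error 0.20, Z-score 3.72). Its second probe had 1863 and 2325, for a log2 ratio of 0.32, and was not past the limits. *Cdc7*, a kinase that fires replication origins, had the lowest value of that list, with dim signals of 52.6 and 35.5, for a log2 ratio of -0.57 (error 0.26, Z-score -1.04). Of 18 p53 target genes, 15 were measured with a median log2 ratio of 0.15, and none was higher or lower. They ranged from -0.21 for *Bax*, a gene of apoptosis, to 0.46 for *Trp53inp1*, a stress response gene whose second probe gave -0.32.

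Markers of the labelled cells and of other cells were read on the same arrays. Of 10 proliferation markers, 3 were above 0 by their brightest probe, *Top2a* (0.31), *Mki67* (0.29) and *Birc5* (0.23). A second *Mki67* probe gave 0.12, and dimmer *Birc5* probes gave 0.065 and -0.028. The other 7 markers lay between -0.083 (*Tyms*) and -0.026 (*Mcm5*), and none of the 10 was higher or lower. All 8 mammary carcinoma markers were measured with a median log2 ratio of 0.29, and of these *Krt14* (0.98) and *Cldn7* (0.85) were higher and *Krt7* (0.15) had the lowest value. The 7 measured genes of ALDEFLUOR-active ALDH isoforms ranged from -0.049 (*Aldh3a2*) to 0.23 (*Aldh5a1*) by their brightest probe, and none was higher. A dimmer probe of *Aldh3a1* was past the limits, with signals of 811 and 1247, giving a log2 ratio of 0.62, while the brightest probe of that gene gave 0.025. Of the markers of other cells, 5 of 9 leukocyte, 2 of 6 endothelial and 4 of 8 fibroblast genes were measured, while the defining markers *Ptprc*, *Cdh5* and *Dcn* were below background on both arrays. Each of these lists had values on both sides of 0. Of the 5 leukocyte genes 4 were below 0, and the median was -0.34. *Itgam* was lower (signals of 7301 and 3795, log2 ratio -0.94), while *Cd3e* (-0.47), *Csf1r* (-0.34) and *Cd79a* (-0.32) were not past the limits. Much dimmer *Itgam* probes gave -0.67 (24.3 and 15.3) and 0.38 (21.8 and 28.4), neither past the limits. *Cd68* was above 0 (0.44, Z-score 2.33) and not past the ratio limit. Of the endothelial genes, *Kdr* was lower (-0.43) and *Pecam1* gave 0.21. The other *Kdr* probe was below background on both arrays. Among the fibroblast genes *Postn* was higher (0.96), while *Col1a1* (-0.70), *Pdgfra* (-0.027) and *Col1a2* (-0.020) were below 0 and not past the limits. The part of any of these genes or cells in the values of the cell cycle genes was not tested.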

How the data were processed

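The authors scanned 2 one-colour Agilent arrays and deposited, per array, processed signals as background-subtracted intensity, together with a table of quantile-normalized intensity. Agilent Feature Extraction was version 9.5.1.1 in the submitters' processing notes and 10.7.1.1 in the file headers. From the deposited processed signals, control spots (3671) were dropped. Spots the scanner marked as outliers of their population (135 and 116 on the ALDH-negative and ALDH-positive arrays) or as non-uniform were dropped too. Repeats of a probe were averaged as log2. The 55681 probes were quantile-normalized with signals under 1 set to 1. The Z-score used the mean and SD over a probe and its neighbours in brightness, 250 on each side, because the methods give the limits but no definition. Measured member values differed by at most 0.0035 (log2) from the deposited table. Of the 72 member probes, 68 had a transcript accession in a RefSeq gene table, all under the same symbol. Probes printed 10 times had a median SD within an array of 0.058 and 0.048 (log2). The number of arrays limits the precision.

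The members, gene lists and naming rule (every member; of the other lists, each gene past the limits, the highest and the lowest, and defining markers) were chosen with earlier results of these data known. Calls of genes and counts of higher and lower members were recomputed under 12 alternatives: a scaling to the 75th percentile, normexp background correction (offset 50), no background correction, the deposited table, both arrays well above background, a gene's median over its probes, without the last eighth of rows and columns, after subtraction of a local median over 21 × 21 spots, with 100 or 500 probes or all probes behind the Z-score, and with a ratio limit of 1.5 both ways. Changes to the Z-score or the ratio limit leave log2 ratios as they are, so medians were recomputed under the other 8. The selection of genes past the limits was also run on simulated arrays, made from the mean signals of these arrays with redrawn noise and added changes of known size. Those changes were larger than that of any measured member, so the run cannot tell how changes of the members' size are selected. One regrouping of *Mybl2* and *Wee1* was added after seeing the data. Some genes outside the naming rule, such as *Aurka* and *Plk1*, are named as well. Python 3.11.15, numpy 2.4.6, pandas 2.3.3, matplotlib 3.10.9, R 4.3.3 and limma 3.58.1 were used.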

Additional observations from a re-analysis of the deposited data

How the results depend on the processing

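With the 75th percentile scaling, 3 members (6.67%) were higher, *Ccnf*, *Cdk1* (0.67, log2) and *Cdc25b* (0.62), against 1.75% of all measured genes, and the median of the G2/M genes was 0.32. With the Z-score taken over all probes, 0 members were higher, against 1.91%. The all-probe setting changes the Z-score alone, and the log2 ratio of *Ccnf* stayed at 0.70. The percentile scaling changes the log2 ratios themselves, as given below. In the other 10 alternatives, 1 member was higher, *Ccnf*, with a log2 ratio of 0.64 to 0.79 over all 12. No member was lower in any of the 12. Neither *Cdk1* (0.24 to 0.67) nor *Cdc25b* (0.52 to 0.62) was higher in another alternative, and *Cks2* (0.35 to 0.49) was higher in none. *Cdk1* fell to 0.24 with the median over its 3 probes. *Fzr1* (0.48 to 0.72) was not past the limits in 3 alternatives: the Z-score over all probes, the local median subtracted and the median over its probes. The median of all measured members was 0.029 to 0.11. The percentile scaling moved the median of all measured genes from 0.020 to 0.046. Bright members moved further: *Ccnf* went from 0.70 to 0.79, *Cdk1* from 0.58 to 0.67, *Cdc25b* from 0.53 to 0.62 and *Ccnd2* from -0.11 to -0.027. The dim *Ccng2* went the other way, from 0.56 to 0.48. Without the last eighth of rows and of columns, *Cdkn1b* was read by its dim probe alone, at -0.85. No paired analysis was possible because each population had a single array. Signal over background limits the dim genes, such as *Ccng2* and *Cdc7*, whose errors were 0.23 and 0.26.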
